A study of Mus musculus with 30 samples.

Results

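The collagen genes were taken as every gene whose mapped symbol reads Col, a number, the letter a and a number, and 42 of the 18784 genes measured met that rule. Each was represented by 1 probe set, and the platform annotation gave none of them a further probe set to choose from. They comprised 11 fibrillar collagens, 8 basement membrane collagens and 23 other collagens. Col12a1, Col21a1 and Col6a3, which also belong to the family, had no probe set with that symbol here. Of the 42, 39 had a mean in at least 1 group above 5.34, the median of all values on all arrays, and Col28a1, Col6a4 and Col6a6 did not.

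Collagens are secreted as triple helices built from alpha chains. The fibrillar chains assemble into the banded fibrils that give connective tissue its tensile strength, and type IV chains form the sheet-like network of the basement membrane on which epithelium and vessels rest. Fibroblasts are the main source of fibrillar collagen in skin-like tissue, and carcinomas commonly remodel both the basement membrane under the tumor cells and the fibrous stroma around them.

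The study followed the preputial gland duct, an epithelial duct of a modified sebaceous gland, of male mice that ate benzo[a]pyrene (BaP), a carcinogenic polycyclic hydrocarbon, and its title places the series within squamous cell carcinoma formation in that duct. All mice were on the B6 background and began the diet at 6 weeks of age with an intake of about 12.5 mg/kg/day. The 3 genotypes were wild type (WT), a knockout of the BaP-metabolising enzyme Cyp1a1 (KO), and a double knockout of Cyp1a1 and Cyp1b1 (DKO), each sampled at weeks 0, 4, 8, 12 and 16 with 2 mice per group, 30 arrays in all. The week 0 mice were the only ones without BaP, so age and exposure rise together and cannot be told apart. Neither the cell types in which the alleles were deleted nor the length of each deletion is given in the sources used here, and each p-value measures only the spread between these mice. The labels describe whole glands freed of surrounding tissue, so that each array averages many cell types, and fewer cells of a type and less RNA per cell cannot be told apart.

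The values are log2 intensities, on which a difference of 1 is a 2-fold change. A set of 9 arrays stood apart by a narrow range of values. The standard deviation of all log2 values was 1.155 to 1.417 on those arrays and 1.699 to 2.08 on the other 21. They were 8 of the 10 arrays labelled DKO (all but week 0 replicate 1 and week 12 replicate 2) and KO week 12 replicate 2, so this array property and the DKO label can barely be separated. Cyp1b1 went against the DKO label. Over weeks 4 to 16 its level was 9.48, 10.31 and 10.57 (lowest, median and highest of 8 arrays) in arrays labelled DKO, 7.71, 8.52 and 8.82 in KO, and 6.17, 6.53 and 6.77 in WT. Cyp1a1 read 3.98, 4.58 and 6.14 in DKO, 3.76, 4.15 and 4.80 in KO, and 4.26, 4.45 and 4.69 in WT. Where the probes lie relative to the deleted sequence is not given in the sources used here, so these values do not check the genotypes, and every DKO statement refers to the arrays so labelled. Sebocyte markers were present in all genotypes, with a mean level over 8 markers of 8.15 to 8.60 in WT and 6.02 to 7.47 in DKO at weeks 4 to 16, as were keratinocyte markers.

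The first question was how collagen expression on BaP compared between genotypes, over the 8 arrays per genotype of weeks 4 to 16. A gene was called when its Benjamini-Hochberg adjusted p, from limma across all 18784 genes, was below 0.05, and each difference is given with its model standard error (SE). In arrays labelled DKO against WT, 26 of the 42 collagens were higher, none was lower and 16 were not called. The higher ones were 9 of the 11 fibrillar, 7 of the 8 basement membrane and 10 of the 23 other collagens. Among all genes 68.5% were called, 39.8% higher and 28.7% lower. The median difference was 0.495 over the collagens and 0.194 over all genes. The split of all genes moved with the scaling, from 7475 higher and 5396 lower to 2340 and 2924 after quantile normalization and 6109 and 6332 after median centring. The all-gene median then moved to 0.032 and 0.020, and that of the collagens to 0.505 and 0.321. Under those scalings 19 and 16 collagens were higher and none was lower.

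Among the fibrillar collagens, Col5a2, Col11a1 and Col24a1 showed the smallest p-values. Col5a2 encodes a chain of type V collagen, which sits inside type I fibrils and limits their diameter. Its level at weeks 4 to 16 was 5.42, 5.94 and 6.28 (lowest, median and highest of 8 arrays) in DKO, 4.77, 5.07 and 5.36 in KO, and 4.49, 4.80 and 5.02 in WT. Every DKO array therefore lay above every KO and every WT array, while KO and WT overlapped. The difference from WT was 1.18 ± 0.16, a 2.26-fold change (limma, adjusted p = 1.83e-05), and the difference from KO was 0.86 ± 0.19 (adjusted p = 0.00231). Against WT, Col5a2 was called under 9 other ways of processing that kept weeks 4 to 16 and with each of 20 arrays left out, with differences between 1.00 and 2.04. Not all of these are separate checks. Col5a2 has 1 probe set, so averaging probe sets could not move it, and the week 0 arrays enter only the spread. The block for the sample number range rests on the DKO week 0 pair alone. Without the 9 narrow-range arrays the contrast with KO comes down to 1 DKO array against 1 KO array of week 12, at 6.18 and 4.99, which is no test of weeks 4 to 16. The call against KO was lost with the sample number range as a block (1.17, adjusted p = 0.44).

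Col11a1, a chain of the type XI collagen best known from cartilage fibrils, had levels of 5.37, 5.52 and 5.92 in DKO, 4.64, 5.03 and 5.19 in KO, and 4.32, 4.57 and 4.88 in WT. Here too no DKO array overlapped KO or WT. The difference from WT was 0.95 ± 0.14 (limma, adjusted p = 4e-05) and that from KO 0.58 ± 0.16 (adjusted p = 0.00911). Col24a1, a fibrillar collagen described in developing bone, had levels of 5.08, 5.78 and 6.13 in DKO, 4.75, 5.05 and 5.46 in KO, and 4.60, 4.73 and 4.97 in WT. Its DKO arrays lay above all WT arrays and overlapped KO, with differences of 0.91 ± 0.15 from WT (limma, adjusted p = 7.17e-05) and 0.60 ± 0.17 from KO (adjusted p = 0.0114). The DKO array on BaP with an ordinary range, week 12 replicate 2, had the lowest of those DKO values for Col24a1, at 5.08, against 4.60 and 4.72 in the WT mice of that week. The 250 bases before the annotated start of both genes are shown because both were called against WT and KO. They are the plus strand of chr3:114030290-114030539 and chr3:145292222-145292471 in the RefSeq table for GRCm38.p6, and capitals mark 3 promoter motifs on either strand. The CCAAT box was searched as CCAAT and as ATTGG. The GC box was searched as GGGCGG and, on the opposite strand, as CCGCCC. The TATA box was searched as TATAAA and as TTTATA, and no matches overlapped.
Col11a1: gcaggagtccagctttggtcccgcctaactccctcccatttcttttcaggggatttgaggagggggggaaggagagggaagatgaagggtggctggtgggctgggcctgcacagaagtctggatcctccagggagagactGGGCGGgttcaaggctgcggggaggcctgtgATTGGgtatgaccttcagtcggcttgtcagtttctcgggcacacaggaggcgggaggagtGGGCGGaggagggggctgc
Col24a1: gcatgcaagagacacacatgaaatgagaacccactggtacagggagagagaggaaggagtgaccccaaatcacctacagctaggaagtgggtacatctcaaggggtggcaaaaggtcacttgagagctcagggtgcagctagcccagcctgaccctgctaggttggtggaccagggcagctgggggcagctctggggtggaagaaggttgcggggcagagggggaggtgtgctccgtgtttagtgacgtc
The Col11a1 window holds 1 ATTGG and 2 GGGCGG, and the Col24a1 window holds none of the 3 motifs. Of the 42 collagens, 34 had an entry there with 37 windows between them, of which 13 hold CCAAT, 22 hold GGGCGG and 5 hold TATAAA on either strand. Among all 32851 windows of that length the shares were 33.8%, 32.7% and 12.4%.

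The chains of the common type I and type III fibrils had smaller differences on the deposited scale. Col1a1, the alpha 1 chain of type I collagen, had levels of 6.21, 6.86 and 7.94 in DKO, 6.20, 6.29 and 6.90 in KO, and 5.94, 6.33 and 6.55 in WT. The groups overlapped, the highest value was that of DKO week 16 replicate 1, and the difference between DKO and WT was 0.54 ± 0.21 (limma, adjusted p = 0.0319). Col3a1, the chain of type III collagen, had levels of 5.55, 6.41 and 7.31 in DKO and 5.35, 6.03 and 6.38 in WT, and the difference was 0.50 ± 0.20 (limma, adjusted p = 0.0373). Col1a2, the partner chain of Col1a1, was not called at 0.37 ± 0.17 (limma, adjusted p = 0.0617), with levels of 6.23, 6.97 and 7.60 in DKO, 5.71, 6.67 and 7.43 in KO, and 5.80, 6.67 and 6.89 in WT. The DKO mice of week 12 read above the WT mice of that week for Col1a1, Col1a2 and Col3a1. The DKO values were 6.38 and 6.97 for Col1a1, 7.56 and 7.60 for Col1a2, and 7.09 and 7.09 for Col3a1. The WT values were 5.94 and 6.04 for Col1a1, 5.80 and 6.39 for Col1a2, and 5.35 and 5.78 for Col3a1. One of those DKO arrays is a narrow-range array and the other is not, and WT week 12 replicate 1 was the lowest WT array for Col1a2 and Col3a1. Other weeks differed. The DKO mice also read above the WT mice for these chains at week 16, but the genotypes overlapped at week 8. At week 4 Col1a2 was lower in DKO (6.23 and 6.60) than in WT (6.73 and 6.87). Col3a1 was too, at 5.96 and 5.99 against 6.07 and 6.38, and Col1a1 overlapped.

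The size of these differences depended on how the arrays were scaled. After quantile normalization, which gives every array the same distribution, the DKO minus WT difference was 1.23 for Col1a1 (adjusted p = 0.00604), 1.12 for Col1a2 (adjusted p = 0.00102) and 1.00 for Col3a1 (adjusted p = 0.00983). After centring each array on its median, Col3a1 was at 0.32 (adjusted p = 0.168), and the call of Col1a1 was lost as well. With each of 20 arrays left out singly on the deposited scale, Col1a1 stayed called in 12 fits and Col3a1 in 9. The largest adjusted p of those fits was 0.0855 for Col1a1 and 0.0984 for Col3a1 (limma). With the range of the sample numbers in the labels (1 to 20 or 22 to 33) as a block, 1 of the 26 collagens, Col5a2, was still called against WT, and Col1a1 turned to -0.53. All WT arrays are in the low range and all DKO arrays of weeks 4 to 16 in the high range, so that block rests on the DKO week 0 pair alone.

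Of the remaining fibrillar collagens, Col2a1, the cartilage fibril chain, had levels of 5.62, 6.00 and 6.63 in DKO, 5.10, 5.33 and 6.71 in KO, and 5.08, 5.21 and 5.37 in WT. All DKO arrays exceeded all WT arrays, and the highest KO value came from the narrow-range array of week 12. Among KO arrays on BaP that array had the highest mean of chondrocyte and bone markers (5.74). It also had the highest means of neutrophil (5.42) and Schwann cell (5.34) markers, and the part of these cell types in the value was not tested. The difference from WT was 0.86 ± 0.16 (limma, adjusted p = 0.000247). Col27a1, Col5a3 and Col11a2 were also higher, by 0.47, 0.49 and 0.42, and Col5a1 was not called at 0.39 (adjusted p = 0.0553).

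**Figure D1:**
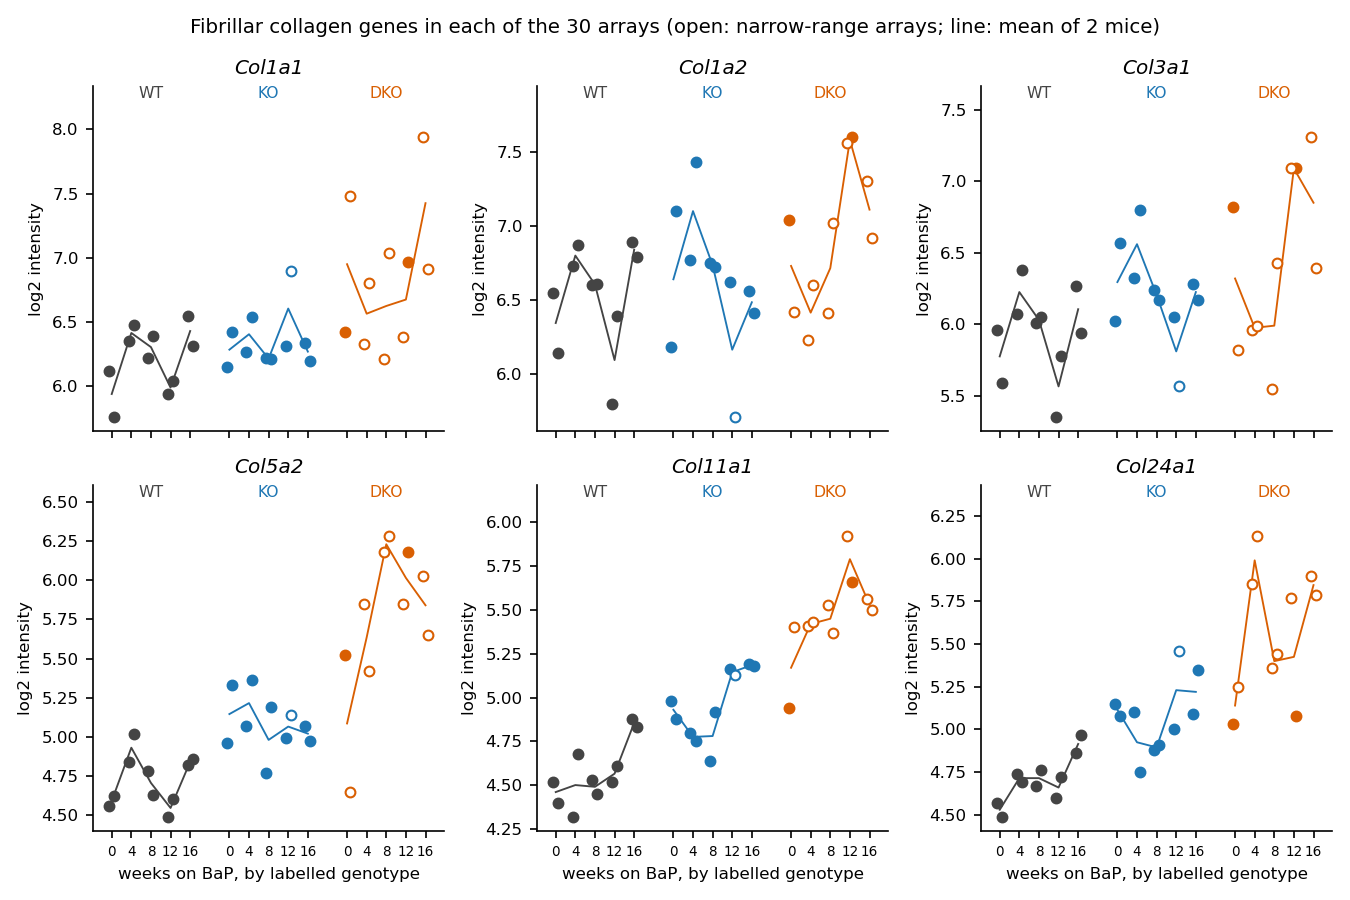
Log2 level of fibrillar collagens on each array, by week of BaP (0, 4, 8, 12 and 16) and genotype. Each point is 1 mouse, open points are the narrow-range arrays and lines join the means of the 2 mice of a group. The DKO points of Col5a2 at weeks 4 to 16 run from 5.42 to 6.28, above all KO (4.77 to 5.36) and WT (4.49 to 5.02) points of those weeks.

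Of the basement membrane collagens, 5 of the 6 type IV chains were higher in DKO than in WT. Col4a6, a chain of the minor type IV network that lines smooth muscle and some epithelia, had levels of 4.65, 5.53 and 5.71 in DKO, 4.12, 4.52 and 5.79 in KO, and 4.07, 4.26 and 4.55 in WT. DKO lay above WT without overlap, and KO overlapped both. The lowest of these DKO values, 4.65, was that of week 12 replicate 2, the only DKO array on BaP with an ordinary range. The WT mice of that week read 4.27 and 4.07. The highest KO value was that of the narrow-range array of week 12, and the other KO arrays of weeks 4 to 16 ended at 4.82, still above the lowest DKO array. The difference from WT was 1.1 ± 0.17 (limma, adjusted p = 5.32e-05) and that from KO 0.71 ± 0.22 (adjusted p = 0.0165). Col4a5, its partner in that network, had levels of 5.22, 5.51 and 5.67 in DKO, 4.85, 5.07 and 5.31 in KO, and 4.72, 4.89 and 4.94 in WT. Again every DKO array exceeded every WT array, by 0.62 ± 0.14 on average (limma, adjusted p = 0.00125).

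Col4a5 and Col4a6 lie head to head on chromosome X and were both called, so the bases before each start are shown. In the RefSeq table for GRCm38.p6, the Col4a5 window is chrX:141475169-141475418 on the plus strand, and the Col4a6 window is chrX:141474077-141474326 on the minus strand. Counting both, 1344 bases run from start to start, and capitals mark the same motifs as above.
Col4a5: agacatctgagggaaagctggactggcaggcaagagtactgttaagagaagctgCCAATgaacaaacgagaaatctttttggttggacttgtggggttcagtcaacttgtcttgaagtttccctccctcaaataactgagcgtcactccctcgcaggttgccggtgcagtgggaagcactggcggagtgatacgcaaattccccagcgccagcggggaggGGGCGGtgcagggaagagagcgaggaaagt
Col4a6: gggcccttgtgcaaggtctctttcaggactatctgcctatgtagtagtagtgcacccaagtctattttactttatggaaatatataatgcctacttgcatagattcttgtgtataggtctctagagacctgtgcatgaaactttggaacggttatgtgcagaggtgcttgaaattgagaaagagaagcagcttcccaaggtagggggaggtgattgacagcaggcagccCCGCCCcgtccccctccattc
The Col4a5 window holds 1 CCAAT and 1 GGGCGG, and the Col4a6 window holds 1 CCGCCC. Neither holds TATAAA on either strand.

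Col4a1 and Col4a2, the chains of the ubiquitous type IV network, are also a head-to-head pair, on chromosome 8, with starts that span 22 bases. Col4a2 was called and Col4a1 was not, and the difference between them was not tested. Col4a2 had levels of 5.75, 6.33 and 7.17 in DKO, 5.59, 5.82 and 7.23 in KO, and 5.32, 5.69 and 5.78 in WT, and the DKO minus WT difference was 0.82 ± 0.20 (limma, adjusted p = 0.00197). Col4a1 had levels of 5.64, 5.88 and 6.35 in DKO, 5.29, 5.65 and 5.82 in KO, and 5.36, 5.63 and 5.84 in WT, and the difference was 0.29 ± 0.16 (adjusted p = 0.127). Both chains overlapped between DKO and WT. Some narrow-range arrays read high for 1 chain alone. KO week 12 replicate 2 read 7.23 for Col4a2, when the other KO arrays on BaP read 5.59 to 5.90, but 5.63 for Col4a1, within the KO range. The DKO array on BaP with an ordinary range, week 12 replicate 2, read 6.21 for Col4a2 and 6.14 for Col4a1, and the WT mice of that week read 5.32 and 5.57 for Col4a2 and 5.36 and 5.46 for Col4a1. Col4a3 and Col4a4, chains of the network known from the kidney glomerulus, were higher by 0.62 and 0.74 (limma, adjusted p = 0.00504 and 0.00283). Col15a1 and Col18a1, whose proteins link basement membranes to the matrix and carry angiogenesis-inhibiting fragments, were higher by 0.52 and 0.56 (adjusted p = 0.0324 and 0.0163).

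**Figure D2:**
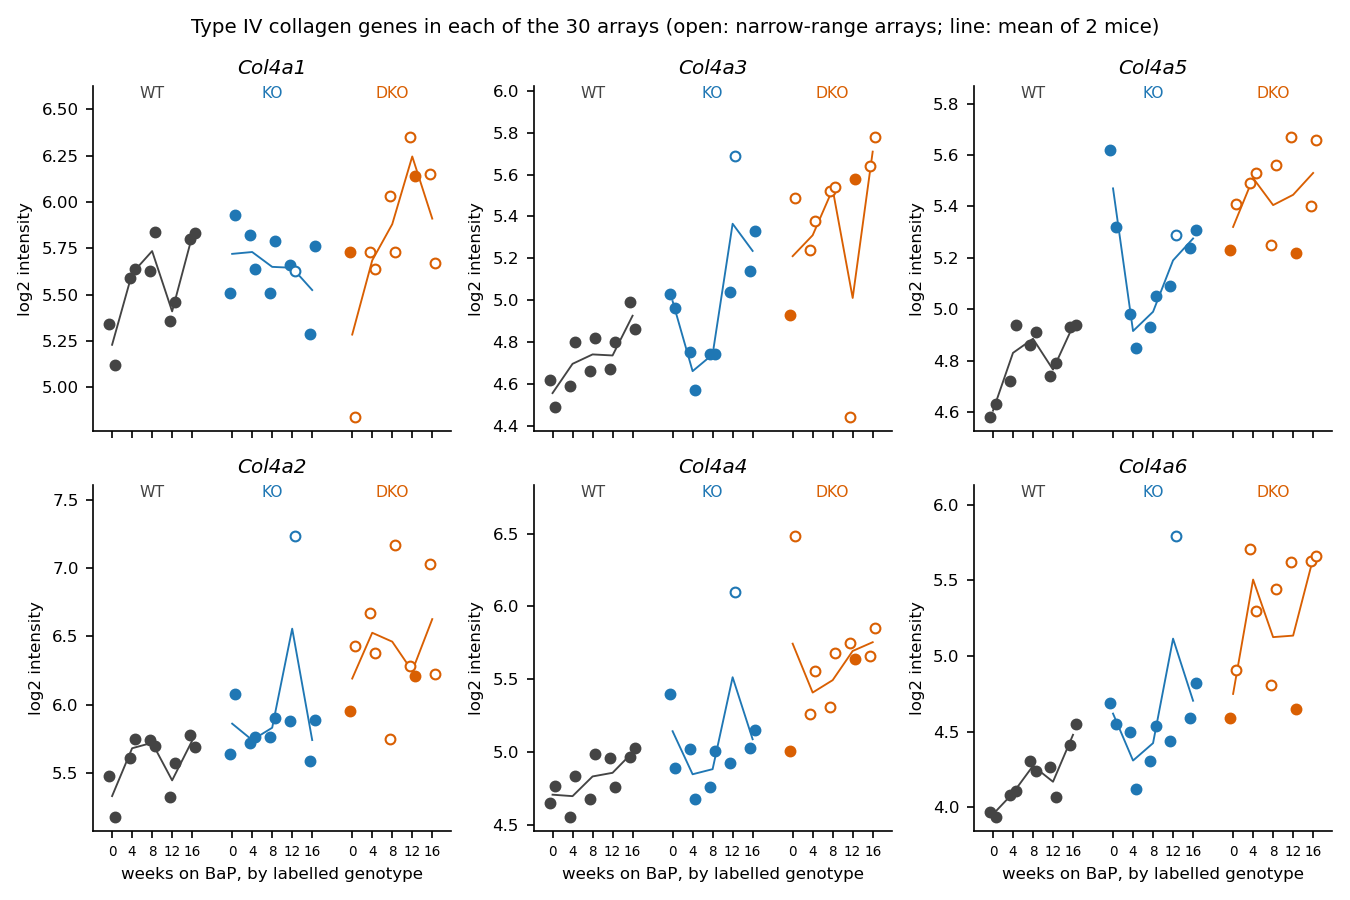
Log2 level of the 6 type IV collagen genes on each array, by week of BaP and genotype. Each point is 1 mouse, open points are the narrow-range arrays and lines join the means of the 2 mice of a group. The WT points of Col4a6 at weeks 4 to 16 end at 4.55, below the lowest DKO point of those weeks at 4.65. That point is week 12 replicate 2, the only DKO array on BaP with an ordinary range.

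The other collagens were mixed. Of the fibril-associated collagens, which decorate fibril surfaces, 6 of 8 were higher in DKO than in WT. Col19a1, found near basement membranes, had the largest difference of any collagen in this fit, with levels of 4.37, 5.20 and 6.09 in DKO, 3.77, 4.07 and 5.55 in KO, and 3.85, 3.91 and 4.10 in WT. All DKO arrays exceeded all WT arrays, by 1.19 ± 0.18 on average (limma, adjusted p = 3.32e-05). Col9a2, a cartilage fibril-associated chain, was higher by 0.63 (adjusted p = 0.00271) and Col22a1, found at tissue junctions, by 0.75 (adjusted p = 0.00142). Col14a1, a collagen of skin and tendon fibrils, was not called at -0.22 ± 0.18 (limma, adjusted p = 0.281), and its highest value was 7.55 in KO week 4 replicate 2. That array also had the highest mean of any KO array on BaP for markers of fibroblasts and pericytes (7.10), skeletal muscle (6.23) and endothelium (6.54). The same held for fat cells (6.53), macrophages (7.92) and keratinocytes (8.51), and the part of these cell types in the value was not tested.

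Of the 3 short-chain network collagens, Col10a1, the collagen of hypertrophic cartilage, and Col8a2, a collagen of endothelial and corneal matrix, were higher in DKO. Col10a1 had levels of 5.46, 5.96 and 6.57 in DKO, 5.24, 5.51 and 6.55 in KO, and 4.75, 5.18 and 5.27 in WT, with no overlap between DKO and WT and a difference of 0.87 ± 0.15 (limma, adjusted p = 0.00011). Col8a2 was higher by 0.94 ± 0.18 (adjusted p = 0.000241). Among the membrane-bound and remaining collagens 1 of 4 was higher, Col25a1 at 0.67 (adjusted p = 0.0125). Among the beaded filament and von Willebrand domain collagens 1 of 6 was higher, Col6a6 at 0.85 ± 0.20 (limma, adjusted p = 0.00126), while the main type VI chains Col6a1 and Col6a2, which form microfibrils around cells, were at 0.35 (adjusted p = 0.0519) and 0.04. The epithelial anchoring collagens were not called. Col7a1, the anchoring fibril under stratified epithelium, was at 0.26 ± 0.16 (limma, adjusted p = 0.164), with levels of 5.40, 6.02 and 6.28 in DKO and 5.38, 5.72 and 5.88 in WT. Col17a1, the transmembrane collagen of hemidesmosomes, was at -0.14 ± 0.17 (adjusted p = 0.485), with levels of 5.39, 5.92 and 6.42 in DKO and 5.73, 6.09 and 6.33 in WT.

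In all, 10 collagens had every DKO array on BaP above every WT array (Col10a1, Col11a1, Col19a1, Col24a1, Col2a1, Col4a4, Col4a5, Col4a6, Col5a2 and Col6a6), and 17.5% of all genes did so. For Col19a1, Col24a1, Col4a5, Col4a6 and Col6a6 the lowest of those DKO arrays was week 12 replicate 2, the only DKO array on BaP with an ordinary range. Between DKO and KO, 9 collagens were higher and none was lower, against 47.7% of all genes called and 26.2% higher. They were Col5a2, Col11a1, Col24a1 and Col2a1 of the fibrillar class, Col4a6 of the basement membrane class, and Col19a1, Col8a2, Col9a2 and Col22a1. The median difference was 0.353 over the collagens and 0.152 over all genes. Col5a2 and Col11a1 separated DKO from KO without overlap, as 1.12% of all genes did. After quantile normalization 927 genes were higher and 1567 lower, against 4913 and 4047 on the deposited scale, and after median centring 3580 and 4749. The count of collagens fell to 5 without KO week 4 replicate 2, without KO week 8 replicate 1 or without KO week 16 replicate 1, to 5 after quantile normalization or median centring, and to 0 with the number range as a block.

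Between KO and WT, 2 collagens were higher and none was lower, against 7.01% of all genes called and 1.74% higher (327 genes higher and 990 lower, or 424 and 700 after quantile normalization). They were Col11a1 at 0.37 ± 0.09 (limma, adjusted p = 0.0240) and Col10a1 at 0.49 ± 0.14 (adjusted p = 0.0470). Next in p came Col24a1 at 0.31 (adjusted p = 0.0664) and Col5a2 at 0.32 (adjusted p = 0.071), which were not called. Differences were positive for 39 of the 42, with a median of 0.190 against 0.079 over all genes, and no collagen separated KO from WT without overlap (0.277% of all genes did, upwards). With single arrays left out the count ran from 0 to 18. It was 18 without KO week 12 replicate 1, which leaves the narrow-range array alone in that group, and 0 or 1 without any of 16 other arrays. The 3 genotype comparisons share arrays, so their values are not independent of each other.

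**Figure D3:**
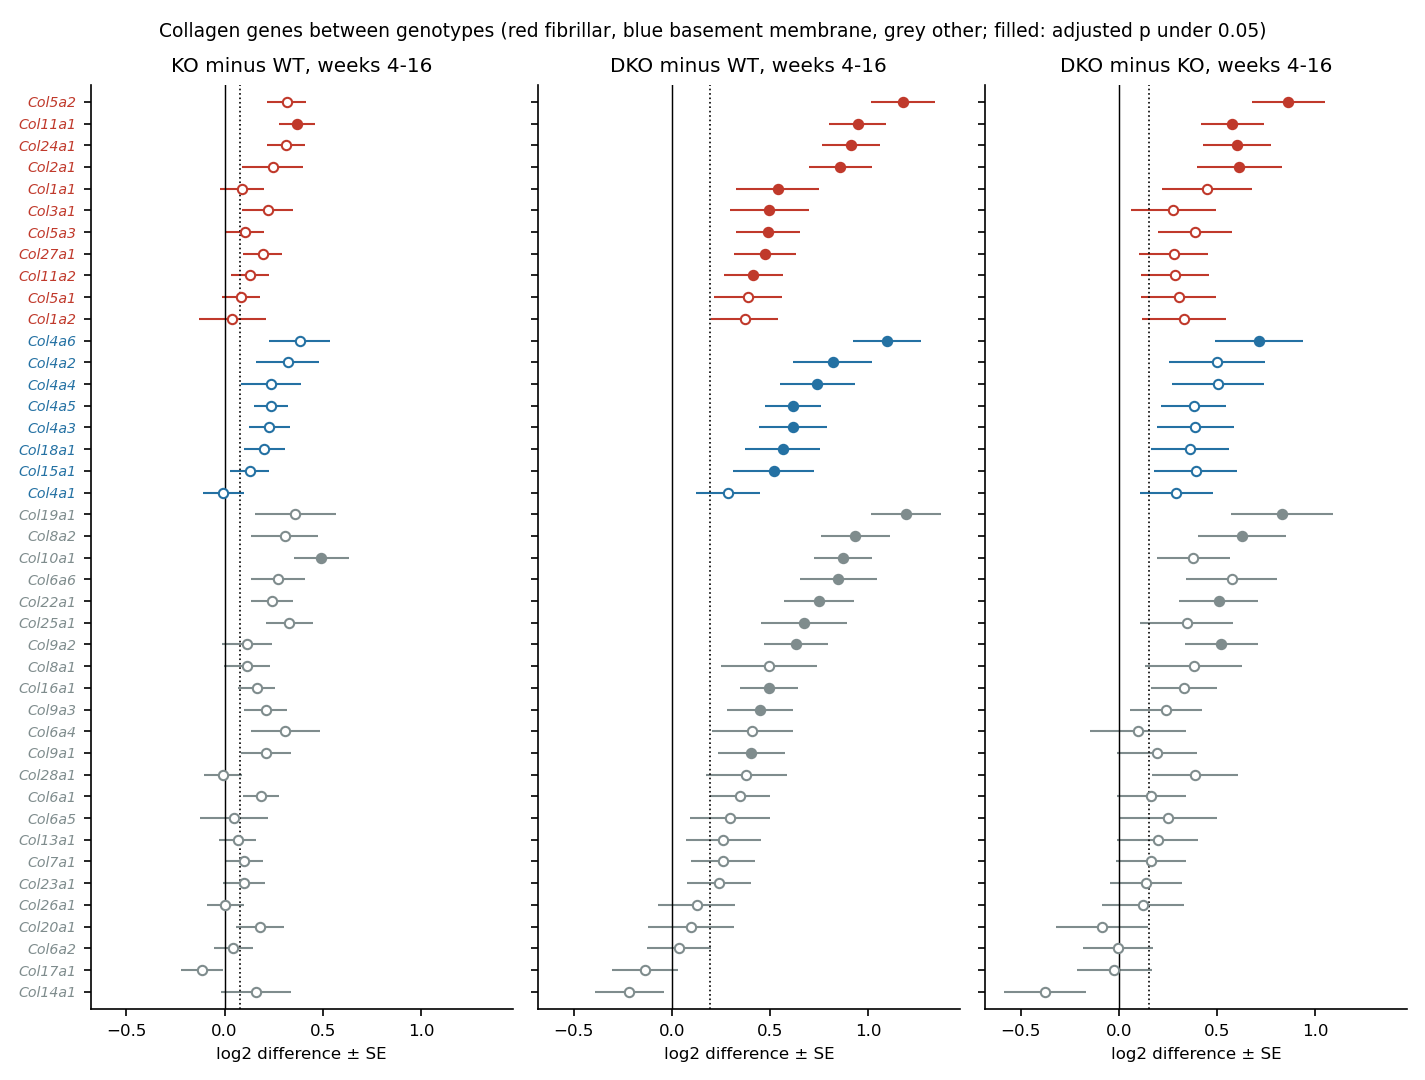
Log2 difference with its SE for each of the 42 collagens at weeks 4 to 16, in 3 panels for KO minus WT, DKO minus WT and DKO minus KO. Red marks fibrillar, blue basement membrane and grey other collagens, filled points have an adjusted p below 0.05, and the dotted line is the median of all genes. There are 2 filled points in the KO minus WT panel, 26 in the DKO minus WT panel and 9 in the DKO minus KO panel.

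The DKO minus WT difference of all genes ran with the WT level, and 7 of the 8 DKO arrays on BaP are narrow-range arrays. Its median was 1.16 for the 4326 genes with a WT level below 4, 0.46 for those between 4.5 and 5, -0.13 between 5.5 and 6, -0.59 between 6 and 7 and -1.20 above 7. Of genes below 4, 97.1% were called higher, and of genes between 6 and 7, 2.6%. The WT level also enters the difference, so this is a description with no test. Read against genes of like level, the order of the collagens changed. Col19a1, with a WT mean of 3.94, differed by 1.19 when the median of its band was 1.16, and Col6a6 by 0.85 in the same band. Col5a2, with a WT mean of 4.75, differed by 1.18 where the band's median was 0.46 and its upper quartile 0.68. Col11a1, Col24a1 and Col8a2 lay above that upper quartile too. Col1a1 and Col1a2, in the band from 6 to 7, differed by 0.54 and 0.37 where the upper quartile of all genes was -0.28. Of the 42 collagens, 35 lay above their band's median (11 of 11 fibrillar, 8 of 8 basement membrane and 16 of 23 other) and 25 above its upper quartile (10, 6 and 9). For KO against WT, 37 of 42 lay above the band's median.

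**Figure D4:**
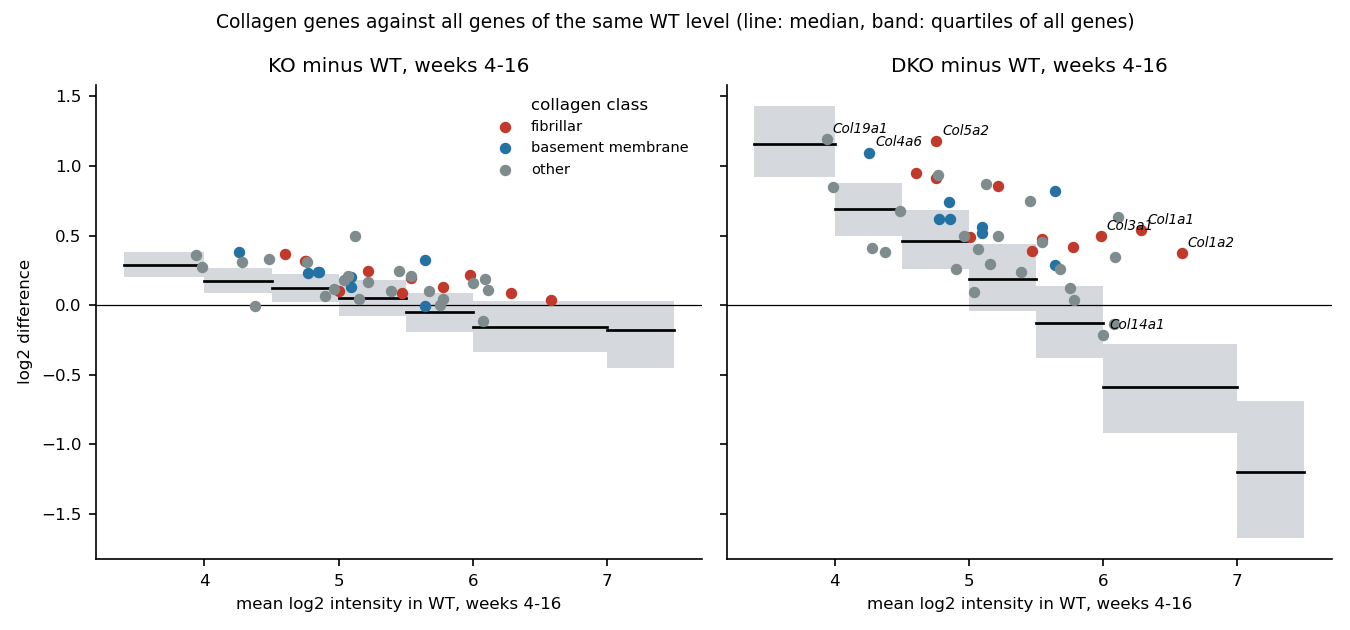
Log2 difference from WT at weeks 4 to 16 against the WT log2 level, for KO and for DKO. Points are the 42 collagens by class, and the line and shaded band are the median and quartiles of all genes per level band, of which the outer bands hold all genes below 4 and above 7. In the DKO panel the line falls from 1.16 to -1.20, and all 11 fibrillar collagens lie above it.

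The second question was whether collagens changed on BaP within a genotype. In WT none of the 42 was called for weeks 4 to 16 against week 0 (0.0% of all genes; limma, smallest adjusted p = 0.276), and 19 had an unadjusted p below 0.05, as did 15.7% of all genes. All 42 differences were positive, with a median of 0.254 against 0.026 over all genes. The all-gene median depended on the WT week 0 level. It was 0.16 between 4.5 and 5, 0.10 between 5 and 5.5 and -0.18 above 7, where no collagen lay. Of the 42 collagens, 37 lay above their band's median and 24 above its upper quartile. The smallest p-values were those of Col6a5 at 0.61 ± 0.14, Col2a1 at 0.43 ± 0.10, Col13a1 at 0.46 ± 0.11, Col6a1 at 0.38 ± 0.10 and Col4a1 at 0.41 ± 0.11. Col6a5, a type VI chain of skin, was highest in WT at week 8, where the mice read 6.35 and 6.04, when the other 8 WT arrays read 4.40 to 4.97. Col4a1 read 5.34 and 5.12 at week 0 and 5.36 to 5.84 on BaP. It was 1 of 11 collagens whose 8 WT arrays on BaP all exceeded both week 0 arrays, as 6.51% of all genes did, and the gap for Col4a1 was small.

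At week 16 alone the WT median was 0.398 (all genes 0.051), none was called (0.0% of all genes; limma, smallest adjusted p = 0.179) and 25 had an unadjusted p below 0.05, against 20.1% of all genes. Col4a1 was at 0.59 ± 0.14, Col6a1 at 0.55 ± 0.12 and Col1a1 at 0.49 ± 0.16. These values lean on the week 0 pair. WT week 0 replicate 2 was the lowest of the 10 WT arrays for 26 of the 42 collagens, and for 21.1% of all genes. Without WT week 0 replicate 1, 2 collagens were called for weeks 4 to 16 and 5 for week 16. Quantile normalization gave a WT median change of 0.120 with 40 positive, and median centring gave 0.161 with 41 positive.

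In KO the median change over weeks 4 to 16 was -0.026 with 16 of 42 positive, and in DKO it was 0.152 with 31 positive. None was called in either (0.0% and 0.0479% of all genes called; limma), and none had an unadjusted p below 0.05, against 2.26% and 5.12% of all genes. At week 16 none was called either (0.0% and 0.016% of all genes), with 0 in KO and 1 in DKO at an unadjusted p below 0.05, against 2.05% and 8.36% of all genes. That one was Col19a1 at 1.42 ± 0.53 (limma, adjusted p = 0.547). The DKO week 0 mice spread widely, with 6.42 and 7.48 for Col1a1, 5.52 and 4.65 for Col5a2 and 5.73 and 4.84 for Col4a1, and the second of each pair is a narrow-range array. The largest DKO change over weeks 4 to 16 was that of Col5a2, at 0.85 ± 0.41 (limma, adjusted p = 0.941). In KO, Col4a5 read 5.62 and 5.32 at week 0 and at most 5.31 on BaP, a difference of -0.38 ± 0.19 that was not called (limma, adjusted p = 1.0). It and Col26a1 were the 2 collagens whose KO arrays on BaP all lay below both week 0 arrays, as did 1.29% of all genes.

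Before BaP, 1 collagen was called between KO and WT (0.724% of all genes were) and none in the other genotype comparisons. At week 0 the KO minus WT difference was positive for 40 of 42 collagens with a median of 0.477 (all genes 0.138), and the DKO minus WT difference for all 42 with a median of 0.663 (all genes 0.190). The DKO minus WT median of all genes again ran with the WT level. It was 0.85 below 4, 0.45 between 4.5 and 5 and -0.91 above 7. Against genes of like level, 35 of 42 collagens lay above their band's median (11 of 11 fibrillar, 5 of 8 basement membrane and 19 of 23 other). For KO minus WT, 40 of 42 did. The called collagen was Col4a5, at 5.62 and 5.32 in KO and 4.58 and 4.63 in WT, a difference of 0.87 ± 0.18 (limma, adjusted p = 0.0400). That call was lost in the fit of all 15 groups, after quantile normalization, with array weights and with the replicate number as a block, and 17 of the 20 arrays, left out singly, ended it. Without either KO week 12 array, 12 collagens were called. None was called between DKO and WT (2.68% of all genes; limma) with 19 at an unadjusted p below 0.05 against 28.7% of all genes, but 14 were called without DKO week 0 replicate 1 and 1 or 2 without any of 6 other DKO arrays. The smallest p-values were those of Col10a1 at 1.11 ± 0.30 (adjusted p = 0.0563) and Col2a1 at 1.17 ± 0.32 (adjusted p = 0.0624). Col10a1 read 5.01 and 4.72 in WT, 6.24 and 5.52 in KO, and 5.83 and 6.11 in DKO, so that both knockouts lay above WT. None was called between DKO and KO (0.0% of all genes; limma), with 0 at an unadjusted p below 0.05 against 3.43% of all genes, and the median was 0.161.

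The change on BaP was tested between genotypes as an interaction. None of the 42 was called for KO against WT, DKO against WT or DKO against KO (0.0%, 0.0213% and 0.0319% of all genes called; limma), with 3, 0 and 1 at an unadjusted p below 0.05 against 4.27%, 4.27% and 3.47% of all genes. The median difference in change was -0.291, -0.163 and 0.165, and the second turned to 0.036 after quantile normalization. The smallest p for KO against WT was that of Col4a5, at -0.63 ± 0.20 (limma, adjusted p = 1.0). The 1 for DKO against KO was Col5a2, at 0.92 ± 0.42 (limma, adjusted p = 0.998). The same week 0 arrays of WT enter the change in WT, the week 0 differences and these interactions, so a low WT week 0 value moves all of them together.

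**Figure D5:**
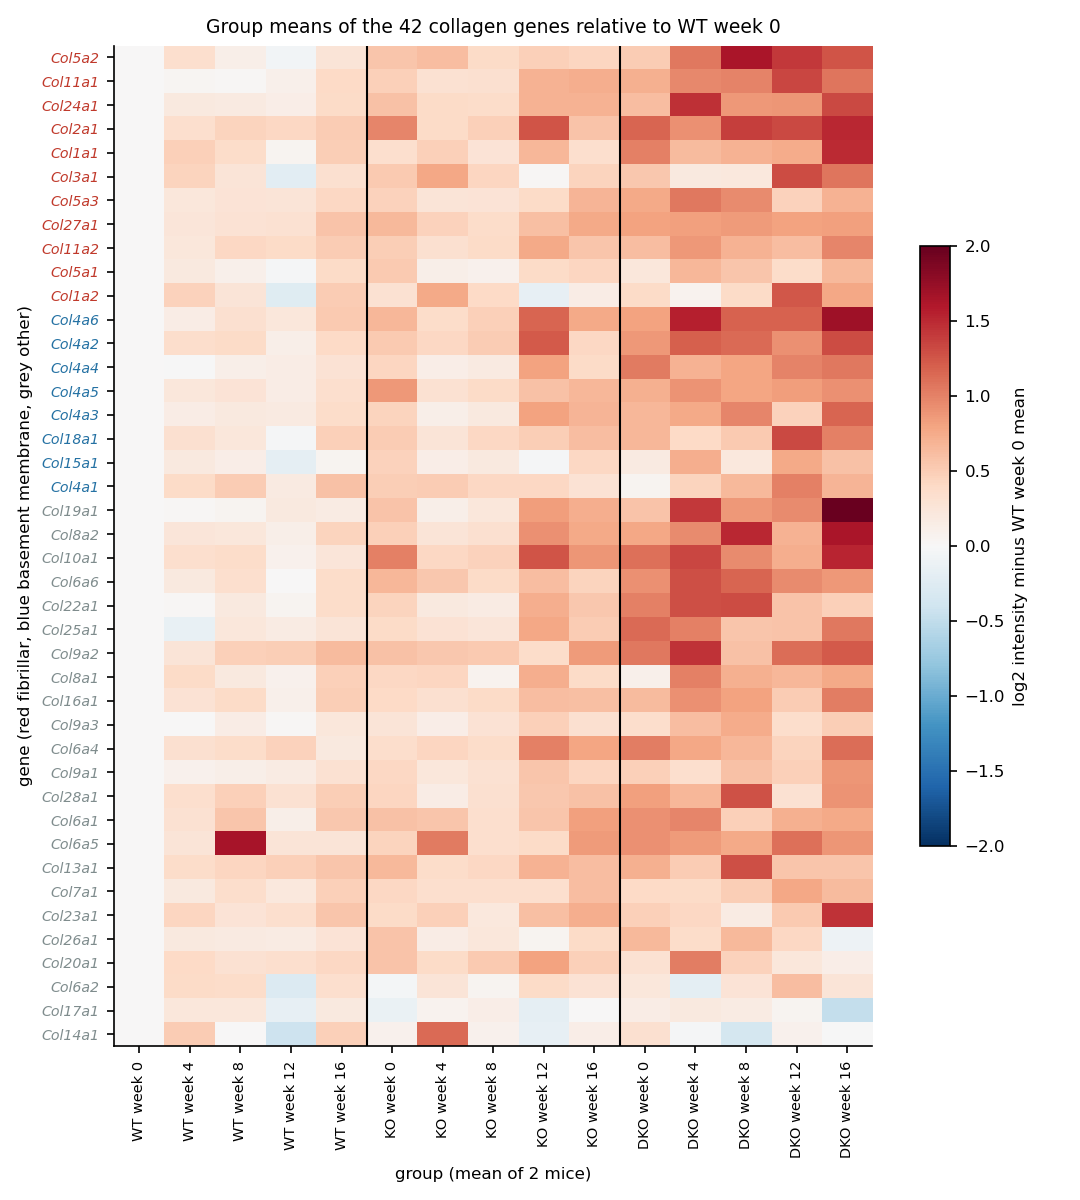
Mean log2 level of each of the 42 collagens in the 15 groups of 2 mice, as the difference from the same gene's WT week 0 mean, with genes in rows by class and groups in columns by genotype and week. Red is higher and blue is lower than WT week 0. Col4a6 goes from 3.97 and 3.94 in the WT week 0 mice to 5.63 and 5.66 in the DKO week 16 mice.

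The enzymes and partners of collagen did not move in 1 direction with the collagens in DKO against WT on BaP. The counts below stand beside 39.8% of all genes higher and 28.7% lower, and those of the processing and breakdown lists lie near these shares in the higher direction. Of 17 genes for collagen modification and folding, 2 were higher and 4 lower. Colgalt2, which adds galactose to collagen lysines, was higher by 1.22. The prolyl hydroxylase subunit P4hb was at -1.37, Crtap of the prolyl 3-hydroxylase complex at -1.35 and the prolyl 3-hydroxylase P3h2 at -1.96. The collagen chaperone Serpinh1 was not called at 0.26 (limma, adjusted p = 0.195). Of 12 genes for procollagen processing and crosslinking, 5 were higher and 1 lower. The procollagen protease Adamts3 was at 1.14, the protease Tll1 at 0.98 and the protease enhancer Pcolce2 at -0.81. The crosslinking enzyme Lox was not called at -0.33 (adjusted p = 0.123).

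Of 13 fibril-binding proteoglycans and matricellular genes, 3 were higher and 5 lower, including Prelp at -1.37 and Sparc, a collagen-binding matrix protein, at -1.35. Of 15 genes for collagen breakdown, 6 were higher and 4 lower. The neutrophil collagenase Mmp8 was at 2.29, Mmp1a at 1.37, the protease inhibitor Timp3 at -2.37 and the collagen-cutting cathepsin Ctsk at -1.51. Of 8 receptors, 1 was higher (the integrin chain Itga11, at 0.78) and 2 were lower, including the integrin chain Itgb1 at -1.31. Of 13 basement membrane partners of type IV collagen, none was higher and 5 were lower, including the linker Nid1 at -1.44 and the laminin chains Lama2 at -1.0 and Lamc1 at -0.83. No list count was tested against all genes. The list medians ran from -0.670 for the proteoglycans to 0.316 for the breakdown genes, beside 0.194 over all genes. On the WT arrays on BaP the mean level was 6.98 to 7.75 for the proteoglycans and 5.47 to 5.63 for the breakdown genes. The median of all genes was -1.20 above a WT level of 7 and -0.13 between 5.5 and 6. Each list mixes genes of different levels, and the part of the level in these medians was not tested.

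Marker genes of several cell types were also called in that comparison, in which 39.8% of all genes were higher and 28.7% lower. Of 8 sebocyte markers, 2 were higher and 5 lower, with a median of -2.25. Of 7 keratinocyte markers, 2 were higher and 4 lower, with a median of -1.07 and mean levels of 7.69 to 9.47 in DKO and 7.92 to 8.67 in WT. The median of all genes with a WT level above 7 was -1.20. Of 10 fibroblast and pericyte markers, none was called higher and 4 were called lower in DKO, including Acta2 at -2.11. The list went both ways, with 5 of 10 differences positive and a median of 0.045. The mean level of these markers was 5.72 to 6.79 on the 8 DKO arrays and 6.38 to 6.98 on the 8 WT arrays. All genes with a WT level between 6 and 7 had a median of -0.59, and 2.6% of them were called higher. Of 7 chondrocyte and bone markers, 5 were higher, including Ibsp at 1.46 and Acan at 0.93, and 1 was lower, Sox9 at -0.92. Their mean level was 5.0 to 5.65 in DKO and 4.66 to 4.89 in WT, without overlap. Of 10 skeletal muscle markers 5 were higher and none lower, with mean levels of 5.02 to 5.69 and 4.65 to 5.07, and of 6 neutrophil markers 5 were higher and none lower. Many of these markers have low WT levels, and 97.1% of all genes with a WT level below 4 and 51.4% of those between 4.5 and 5 were higher. Endothelial markers had 1 of 9 higher and 5 lower. No marker has a true zero on an array, and the part of these cell types in the collagen values was not tested.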

How the data were processed

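Each array measured RNA from 1 mouse. Per the labels' protocols, frozen glands were thawed in RNAlater-ICE, RNA was isolated with Tri-Reagent and RNeasy columns, and it was amplified with the Ovation Pico WTA System and labelled with biotin. The authors deposited log2 intensities, 1 value per probe set, made with RMA per the submitters' processing notes. RMA fits background, quantile and probe effects on all arrays together, and neither its version nor the chip annotation is given in the sources used here. Even so, the columns as deposited were unequal in range. Of 21212 probe sets, 18786 had 1 symbol in the platform annotation, 6 had several and 2420 were not listed. Probe sets of 1 gene were reduced to that with the highest mean, which left 18784 genes. No pair of arrays was identical.

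Group means were fitted with limma 3.58.1 in R 4.3.3 (lmFit and eBayes, two-sided): changes on BaP within each genotype on its 5 groups, and differences between genotypes on the 10 groups compared. Weeks 4 to 16 are the mean of 4 group means. P-values were adjusted by Benjamini-Hochberg over all genes in each of 15 comparisons. The number of arrays limits the precision. Alternatives were 1 fit of all 15 groups, quantile normalization, median centring, a filter on low values, trend and robust variance, array weights, a block for the replicate number or the number range, averaging all probe sets of a gene, no narrow-range arrays (standard deviation below 1.5) and each array left out.

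The members and lists were chosen with earlier results of these data known. Every collagen could be named. Full statistics went to collagens called in any comparison, up to 12 by adjusted p, to the 3 smallest p-values per class and comparison, and to Col1a1, Col1a2, Col3a1, Col4a1, Col4a2, Col7a1 and Col17a1. Up to 4 genes with the smallest p-values were named per other list, and Serpinh1, Lox and further genes beyond these were chosen after their values were seen.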

Additional observations from a re-analysis of the deposited data

How the results depend on the processing

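Counts of called collagens moved with the processing as follows. For KO against WT on BaP (2 called), the fit of all 15 groups, quantile normalization and array weights each gave 0, and median centring and the replicate block each gave 1. For DKO against WT on BaP (26), median centring gave 16 and the number range block 1, while quantile normalization gave 19, of which 17 were among the 26. For DKO against KO on BaP (9), the fit of all groups gave 18, quantile normalization and median centring 5 each, and the number range block and the removal of narrow-range arrays 0 each. For KO against WT at week 0 (1), the fit of all groups, quantile normalization, array weights and the replicate block gave 0, and the number range block and the removal of narrow-range arrays 12 each. For DKO against WT at week 0 (0), the fit of all groups gave 1, the low-value filter and the trend variance 2 each, and the removal of narrow-range arrays 13. For the DKO against WT difference in change (0), that removal gave 1. The causes were not tested. With single arrays left out, counts ran from 0 to 2 for WT weeks 4 to 16, 0 to 5 for WT week 16, 0 to 18 for KO against WT, 20 to 30 for DKO against WT and 5 to 12 for DKO against KO on BaP, 0 to 12 for KO against WT and 0 to 14 for DKO against WT at week 0, and 0 to 0 elsewhere. Under the number range block these differences turned sign: for DKO against WT, Col11a2 -0.032, Col1a1 -0.53, Col25a1 -0.58, Col4a4 -0.73 and Col5a3 -0.36, and for DKO against KO, Col19a1 -0.29, Col2a1 -0.29 and Col4a6 -0.019. Deviations of same-numbered arrays of different groups correlated between -0.554 and 0.673, with a median of -0.0215. The replicate numbers thus showed no common direction, though these correlations cannot settle whether some mice were handled together. The replicate block gave 25 for DKO against WT and 8 for DKO against KO. The removal of narrow-range arrays leaves 1 DKO array on BaP, of week 12, and 1 at week 0. Its DKO contrasts therefore compare single DKO arrays with the other genotype's mice of the same week, take their spread from the other genotype alone and are no test of weeks 4 to 16. The change within DKO had no residual spread, and DKO week 16 no value. The number range block could not be fitted within WT.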
